A study of Mus musculus with 24 samples.

Results

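The 7 V segments described here are the copies of mouse Trav7-2, Trav7-3 and Trav7-4 that the Tcra tables list: TRAV7-2, TRAV7-3 and TRAV7-4 without a suffix, TRAV7D-2, TRAV7D-3 and TRAV7D-4, and TRAV7N-4. They are every V segment called TRAV7, TRAV7D or TRAV7N with the number 2, 3 or 4, 7 of the 117 V segments in those tables. The rule used names only, but it was set with earlier results of these data known. The study sequenced T cell receptor transcripts from thymocytes of C57BL/6 mice aged 4 to 12 weeks, which were either wild type or lacked Satb1, a chromatin organiser of developing T cells. Satb1-/- is the genotype on the sample labels, whereas the design text speaks of a Satb1 cKO, a conditional deletion. The sources used here name no promoter or Cre behind the deletion, and Satb1 itself cannot be read from tables of receptor segments. Of the 24 libraries, which cover 4 receptor chains, the 6 of the Tcra chain were used, 3 of each genotype. The labels do not say that replicates came from separate mice, so the p-values below measure only the spread between these libraries.

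A Tcra chain is made by joining 1 of many V segments to 1 of many J segments, which lie in a row downstream of the V array. Rearrangement begins with V segments near the J array and with J segments at its 5′ end, and later rounds on the same allele replace the first join with one that uses a V segment further upstream and a J segment further 3′. In mice the middle of the V array has been copied as large blocks, so that several V segments occur as a plain copy and as near-identical copies named D or N. The Trav7 segments are one of the families spread through these blocks.

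Each table gives the percent of 1 library held by every V and J combination, and the shares add to 100. A share is therefore relative, and fewer cells using a segment cannot be told apart from less transcript per cell. The tables hold only receptor segments, so the thymocyte label could not be checked against marker genes. Read depth is unknown. All listed values are whole multiples, within a tolerance of 0.01, of the smallest value above 0 of their library, which was 0.0158, 0.0157 and 0.0241% in wild-type replicates 1 to 3 and 0.0180, 0.0593 and 0.117% in knockout replicates 1 to 3. The 7 copies together amounted to 363 to 615 of these smallest values in the wild-type libraries, to 199 in knockout replicate 1, and to 38 and 19 in knockout replicates 2 and 3. A single smallest value thus weighed most in the last 2 of these libraries, and the step from a value of 0 to the lowest listed value was widest there.

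The coding sequences show how little separates the copies that the tables list side by side. They are taken by gene symbol from the GENCODE M21 transcripts of the mouse build GRCm38. For the deposited tables, build and segment reference were not given in the sources used here. Positions are counted from 1 at the A of the start codon. Every copy lies on the plus strand of chromosome 14 and has 2 exons, a short one with most of the leader peptide and a longer one with the V region. For the 3 copies of number 4 the second exon is printed, bases 50 to 341, with capitals at the positions where any of them differs from another.
TRAV7-4: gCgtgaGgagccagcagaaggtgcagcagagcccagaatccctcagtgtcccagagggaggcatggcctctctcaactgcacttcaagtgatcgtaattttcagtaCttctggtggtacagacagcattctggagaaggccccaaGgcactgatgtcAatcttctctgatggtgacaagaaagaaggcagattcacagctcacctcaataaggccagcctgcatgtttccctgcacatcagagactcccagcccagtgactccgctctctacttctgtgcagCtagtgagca
TRAV7D-4: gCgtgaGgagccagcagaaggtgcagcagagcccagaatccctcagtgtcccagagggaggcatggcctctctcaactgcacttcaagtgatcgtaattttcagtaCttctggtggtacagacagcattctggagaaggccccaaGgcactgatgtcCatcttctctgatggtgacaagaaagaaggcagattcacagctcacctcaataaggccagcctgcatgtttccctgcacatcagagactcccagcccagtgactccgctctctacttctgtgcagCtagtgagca
TRAV7N-4: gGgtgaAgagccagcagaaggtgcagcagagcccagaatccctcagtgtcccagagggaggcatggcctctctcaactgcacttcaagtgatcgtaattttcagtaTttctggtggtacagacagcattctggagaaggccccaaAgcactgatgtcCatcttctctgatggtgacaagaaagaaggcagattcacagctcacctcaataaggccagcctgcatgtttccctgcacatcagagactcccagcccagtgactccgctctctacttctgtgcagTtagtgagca
Over all 341 coding bases, the first exon included, TRAV7-4 and TRAV7D-4 differ only by C20T and A207C, where the base of the plain copy comes first, and are 99.4% identical. TRAV7N-4 differs from TRAV7-4 by A21C, C51G, G56A, C156T, G195A, A207C and C332T, which leaves 97.9% identity.

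The plain and D copies of number 3 differ over 337 bases only by C279G and G282A, 99.4% identity. Bases 249 to 312 of both are shown because they hold both positions, again in capitals.
TRAV7-3: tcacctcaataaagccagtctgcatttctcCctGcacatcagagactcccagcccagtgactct
TRAV7D-3: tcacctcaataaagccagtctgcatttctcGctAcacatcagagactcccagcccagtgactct
For number 2 there is no difference at all over the 336 bases that TRAV7-2 and TRAV7D-2 have in common, so the second exon of TRAV7-2, bases 50 to 336, stands for both.
TRAV7-2: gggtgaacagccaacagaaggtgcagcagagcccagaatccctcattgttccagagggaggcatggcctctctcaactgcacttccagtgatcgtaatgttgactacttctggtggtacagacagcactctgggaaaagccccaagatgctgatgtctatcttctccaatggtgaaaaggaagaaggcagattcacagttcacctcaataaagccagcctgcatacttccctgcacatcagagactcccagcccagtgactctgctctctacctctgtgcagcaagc
Segments of different number are much further apart, with 88.4% identity between TRAV7-2 and TRAV7-3, 88.3% between TRAV7-2 and TRAV7-4 and 88.0% between TRAV7-3 and TRAV7-4. In the coding sequence an assignment to a number thus rests on many bases. An assignment to a copy within numbers 3 and 4 rests there on few. An assignment between TRAV7-2 and TRAV7D-2 rests on no base of this common coding sequence. Bases upstream of the start codon were not compared.

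In GRCm38 the D copies lie furthest from the J array, at chr14:52683964-52684472 for TRAV7D-2, chr14:52744249-52744840 for TRAV7D-3 and chr14:52769753-52770392 for TRAV7D-4. TRAV7N-4 stands between the other blocks at chr14:53091346-53091875. The plain copies lie nearest to the J array, at chr14:53390635-53391142 for TRAV7-2, chr14:53443249-53443839 for TRAV7-3 and chr14:53461099-53461738 for TRAV7-4. The distance to Traj58, the first J segment of the array in these tables, runs from 1473 kb for TRAV7D-2 to 696 kb for TRAV7-4.

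The 7 copies summed were a smaller part of every knockout library than of any wild-type library. They held 9.75, 8.89 and 8.74% of the 3 wild-type libraries and 3.59, 2.25 and 2.23% of the 3 knockout libraries, which do not overlap. The means were 9.12% ± 0.545 (SD, n = 3) and 2.69% ± 0.780 (SD, n = 3), 3.39-fold apart. The exact two-sided permutation test over libraries gave p = 0.1, the smallest p that 3 against 3 allows, and 0.192 after Benjamini-Hochberg adjustment over the 50 single values tested. None of these 50 tests passed after adjustment. The difference of -6.43 percentage points was -3.25 as a share of the pairs above 0, each counted once, and -1.83 when only pairs of at least 0.117% were summed (exact permutation p = 0.1 for both).

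TRAV7-4 was the most used copy in wild type, with 3.36, 3.67 and 3.78% of the libraries against 1.03, 0.237 and 0.703% in the knockout. Every knockout value lay below every wild-type value, and knockout replicate 2 was the lowest. The difference was -2.65 on the log2(percent + 0.0157) scale, with an adjusted p = 0.0521 by limma over the 84 V segments tested.

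TRAV7-2 came next in wild type, with 2.57, 1.51 and 1.68%, against 1.05, 0.771 and 0.234% in the knockout. Here wild-type replicate 1 stood above the other two, and the genotypes did not overlap (log2 difference -1.67, limma adjusted p = 0.160). TRAV7-3 held 1.58, 2.00 and 1.49% in wild type, against 0.559, 0.119 and 0.469% in the knockout, with knockout replicate 2 again lowest (log2 difference -2.34, limma adjusted p = 0.0639). The order of TRAV7-2 and TRAV7-3 in wild type was not the same in every library, and their means of 1.92% ± 0.567 and 1.69% ± 0.269 (SD, n = 3) differed by less than that spread.

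The D and N copies were all listed below 1% in wild type. TRAV7D-3 held 0.887, 0.708 and 0.770% there, and 0.198, 1.13 and 0% in the knockout. Its knockout libraries thus lay on both sides of the wild-type range, with replicate 2 above it (log2 difference -2.35, limma adjusted p = 0.292). TRAV7N-4 also overlapped between genotypes, with 0.887, 0.535 and 0.554% in wild type, against 0.505, 0 and 0.703% in the knockout (log2 difference -1.86, limma adjusted p = 0.412). TRAV7D-4 did not overlap, with 0.444, 0.409 and 0.409% against 0.253, 0 and 0.117% (log2 difference -2.40, limma adjusted p = 0.177). TRAV7D-2 was the rarest, at 0.0158, 0.0629 and 0.0481% in wild type, which is 1, 4 and 2 smallest values, while each knockout library listed it at 0. It lay under the filter of a mean share of 0.1% and was not tested, and a fold against values of 0 is not given. The log2 differences of these copies depended on single knockout libraries: without replicate 2, TRAV7N-4 stood at -0.10, TRAV7D-4 at -1.21 and TRAV7D-3 at -3.79, and without replicate 3 TRAV7D-3 stood at -0.69. TRAV7-2 stood at -1.04 without replicate 3.

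None of the 6 copies tested passed an adjusted p of 0.05 in limma, where 4.76% of the 84 V segments tested did, 1.19% as lower. The knockout lay wholly below wild type for 4 of the 6, TRAV7-2, TRAV7-3, TRAV7-4 and TRAV7D-4, and for 32.1% of all V segments tested. All 6 log2 differences were below 0, with a median of -2.35, while 63 of the 84 V segments lay below 0 with a median of -0.73. Measured against the mean shift of the 84 segments, -0.92, the difference of TRAV7-4 was -1.73 (limma adjusted p = 0.149). At the larger pseudocount of 0.117%, the smallest value of the coarsest library, TRAV7-2, TRAV7-3 and TRAV7-4 passed, with limma adjusted p of 0.0362, 0.00413 and 0.00038. At that setting 18 of the 84 V segments passed, 14 of them as lower.

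**Figure D1:**
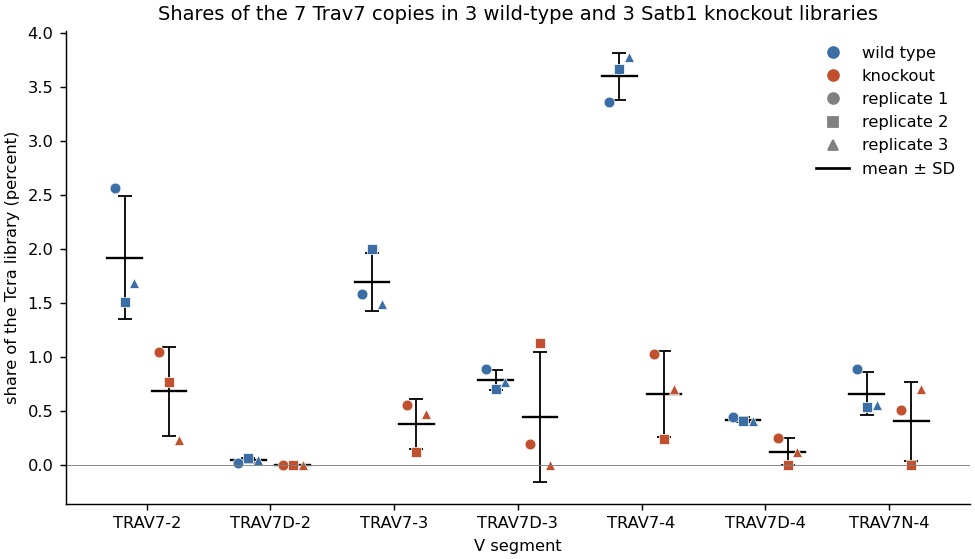
Share of the Tcra library in percent (vertical axis) for each of the 7 copies (horizontal axis), with 1 point per library, shape marking the replicate, and black lines for the mean ± SD of 3 libraries. The wild-type points of TRAV7-4, between 3.36 and 3.78%, are far above its knockout points, while the points of TRAV7D-3 and TRAV7N-4 overlap.

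Since copies of one number are nearly identical, their shares were also summed by number, which does not depend on how sequences were divided among copies. The Trav7-3 copies summed fell in the knockout, from 2.47, 2.71 and 2.26% to 0.758, 1.25 and 0.469%. All knockout libraries lay below all wild-type libraries, as for 33.3% of summed segments, with a log2 difference of -1.68 (limma adjusted p = 0.0351 over 48 summed segments, of which 18.8% passed in either direction and 12.5% as lower). The call was lost when log values were centred on the mean of each library (adjusted p = 0.196), and without any of the 3 wild-type libraries (0.115, 0.141 and 0.0937), without knockout replicate 1 (0.0513) or without knockout replicate 3 (0.0531).

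The Trav7-4 copies summed showed the widest distance, with 4.69, 4.61 and 4.74% in wild type, against 1.79, 0.237 and 1.52% in the knockout. The SD of the 3 wild-type libraries was 0.0667%, while knockout replicate 2 was far below the other two (log2 difference -2.40, limma adjusted p = 0.0550). Without knockout replicate 2 the difference was -1.50 and without knockout replicate 1 it was -2.91, and both passed (limma adjusted p = 0.0159 and 0.0213). It also passed without knockout replicate 3 (0.0189). In these fits 10, 14 and 15 of 49 summed segments passed. The Trav7-4 sum did not pass without wild-type replicate 1, 2 or 3 (limma adjusted p = 0.148, 0.151 and 0.123). Nor did it pass with log values centred on the mean of each library (0.0871). The Trav7-2 copies summed held 2.58, 1.57 and 1.73% against 1.05, 0.771 and 0.234% (log2 difference -1.70, limma adjusted p = 0.0760). The median of the 3 sums was -1.70, against -0.58 over all 48, of which 35 were below 0. The 48 summed segments shifted by -0.64 on average, and relative to that shift the differences of the numbers 2, 3 and 4 were -1.06, -1.03 and -1.76.

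Summed by type of copy, the plain copies held 7.51, 7.17 and 6.96% in wild type, against 2.63, 1.13 and 1.41% in the knockout, means 4.19-fold apart. The D copies held 1.35, 1.18 and 1.23% against 0.451, 1.13 and 0.117%, means 2.21-fold apart, where knockout replicate 2 nearly reached the wild-type level. Neither comparison overlapped, and each gave the smallest possible exact permutation p = 0.1 (adjusted 0.192). For the plain copies the difference of -5.49 points was -1.88 with every pair counted once and -2.33 from pairs of at least 0.117%. The N copy, TRAV7N-4 alone, overlapped between the genotypes (exact permutation p = 0.4, adjusted 0.526).

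Within the 7 copies, the plain ones made up 77.1, 80.7 and 79.6% in wild type, against 73.4, 50.0 and 63.2% in the knockout. The knockout part was below wild type in all 3 libraries, with means of 79.1% ± 1.86 and 62.2% ± 11.7 (SD, n = 3; exact permutation p = 0.1, adjusted 0.192). Counting every pair once, whatever its share, put the knockout 1.88 points above wild type. The D copies made up 13.8, 13.3 and 14.0% in wild type, against 12.6, 50.0 and 5.26% in the knockout (exact permutation p = 1). The high value came from TRAV7D-3 in knockout replicate 2, which alone was 19 of the 38 smallest values that the copies held there, spread over 9 pairs. Without that library the difference of 8.89 points between the means became -4.80. The N copy made up 9.11, 6.02 and 6.34% in wild type, against 14.1, 0 and 31.6% in the knockout, which lie on both sides of the wild-type range (exact permutation p = 0.6).

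The division of each number among its copies was steady in wild type. Of the number 3 copies, TRAV7-3 held 64.1, 73.8 and 66.0% in wild type and TRAV7D-3 the rest. Only the pair of bases shown in capitals separates their coding sequences, and bases upstream of the start codon were not compared. In the knockout TRAV7-3 held 73.8, 9.52 and 100% of that sum, the widest scatter of the 3 numbers. Of the number 4 copies, the wild-type libraries listed 76.9% ± 4.61 as TRAV7-4, 8.99% ± 0.427 as TRAV7D-4 and 14.1% ± 4.20 as TRAV7N-4 (SD, n = 3). For number 2, 97.5% ± 1.71 (SD, n = 3) was listed as TRAV7-2 and 2.46% as TRAV7D-2, copies whose common coding sequence is identical. How the authors assigned sequences to such copies is not given in the sources used here, so that the use of these 2 genes and the rule of assignment cannot be told apart.

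**Figure D2:**
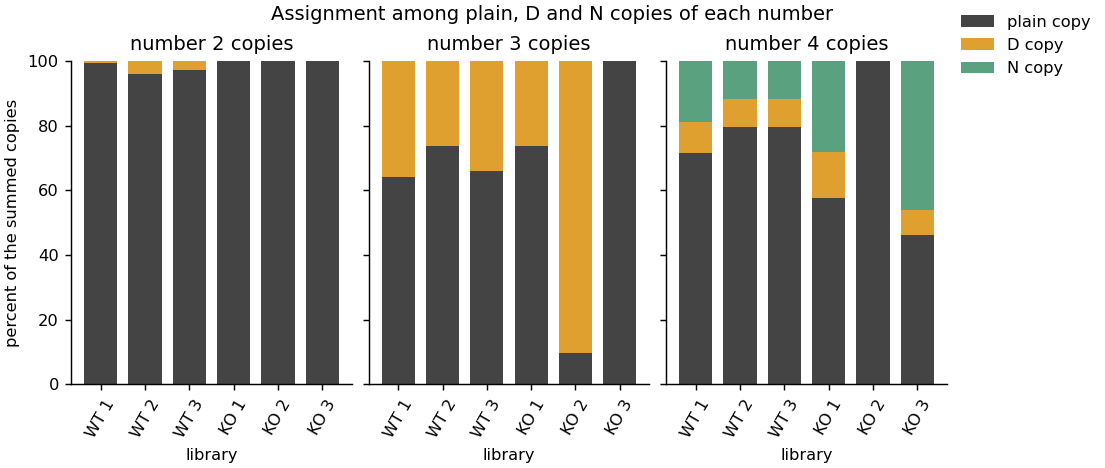
Percent of the summed copies of one number (vertical axis) listed as the plain, D or N copy in each library (horizontal axis), with 1 panel per number. The wild-type bars are alike within each panel, whereas knockout replicate 2 lists 90.5% of number 3 as TRAV7D-3 and knockout replicate 3 lists 46.2% of number 4 as TRAV7N-4.

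The J segments joined to the 7 copies were then compared as the part in the 5′ window, here Traj42 and above (13 of the 43 J segments), and in the 3′ window, Traj21 and below (14 J segments). In wild type 14.0, 17.2 and 19.6% of the copies' share was joined to the 5′ window, and in the knockout 32.7, 76.3 and 57.9%. All 3 knockout libraries were above wild type, with replicate 1 nearest to it. The means were 16.9% ± 2.80 and 55.6% ± 21.9 (SD, n = 3; exact permutation p = 0.1, adjusted 0.192).

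The 3′ window went the other way. It held 44.1, 41.8 and 34.2% of the copies' share in wild type, against 23.1, 2.63 and 5.26% in the knockout (exact permutation p = 0.1, adjusted 0.192). The mean J number is higher the further 5′ the joins lie. It was 24.8, 25.9 and 28.1 for the wild-type libraries and 33.9, 45.3 and 42.4 for the knockout libraries (exact permutation p = 0.1, adjusted 0.192). Thus the joins of these copies that the knockout libraries listed were shifted towards 5′ J segments, in each of the 3 libraries. All other V segments summed went the same way. Their 5′ window held 31.1, 28.6 and 32.2% in wild type, against 69.0, 78.5 and 81.1% in the knockout. Their 3′ window averaged 30.8% in wild type and 4.45% in the knockout, so the shift was not particular to the copies. In wild type the copies reached 43, 42 and 42 of the 43 J segments, and in the knockout 39, 18 and 15. The copies amounted to only 38 and 19 smallest values in knockout replicates 2 and 3. That bounds how many J segments could be listed there, so these counts do not measure how broad the J use was.

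By the mean over libraries, the 3 J segments most used with the copies in wild type were TRAJ12 at 5.48% ± 0.991, TRAJ37 at 5.45% ± 2.49 and TRAJ27 at 4.88% ± 1.62 of the copies' share (SD, n = 3). In the knockout they were TRAJ49 at 8.02% ± 6.82, TRAJ53 at 7.98% ± 4.48 and TRAJ56 at 7.98% ± 2.50 (SD, n = 3), all in the 5′ window. The wild-type leaders lie in the middle or the 3′ window, and within each genotype the leading 3 differed by less than their spread. TRAJ58, the most 5′ segment, ranked last of the 43 with the copies in wild type, at 0.650, 0% and 0.275%, and stood at 3.02, 5.26 and 5.26% in the knockout. With all other V segments TRAJ58 averaged 2.81% in wild type and 12.1% in the knockout, so by these means the copies held less of it in both genotypes. The knockout values of single J segments are parts of only 199, 38 and 19 smallest values, so each rests on few of them, most of all in replicates 2 and 3.

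Set against the other 110 V segments of the same library, the copies used the 5′ J window less in 6 of 6 libraries. The difference was -17.1, -11.5 and -12.6 percentage points in wild type, against -36.4, -2.14 and -23.2 in the knockout, -17.2 on average. The exact two-sided sign-flip permutation test over the 6 libraries gave p = 0.03125, the smallest it allows, and 0.192 after adjustment. The mean J number was lower than that of the other V segments in 6 of 6 libraries as well (mean difference -5.77, exact sign-flip permutation p = 0.03125, adjusted 0.192). Counting every pair once narrowed these gaps to -6.11 points and to -1.996 in the mean J number (exact sign-flip permutation p = 0.0625 for each), and using only pairs of at least 0.117% widened the first to -30.2 points.

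That gap was smaller beside near neighbours. Against the nearest V segment on each side of a copy only, a comparison added after the values were seen, the copies' 5′ J part differed by -6.05 points on average (exact sign-flip permutation p = 0.1875). The gap to all other V segments averaged -13.7 points in wild type and -20.6 in the knockout, a difference of -6.81 (exact permutation p = 0.6, adjusted 0.682). It became 1.09 without knockout replicate 1 (p = 1), -16.0 without knockout replicate 2 and -10.8 with a 5′ window of Traj48 and above (exact permutation p = 0.1 for both). Whether the gap differed between genotypes thus depended on the library and window, and these libraries do not settle it.

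**Figure D3:**
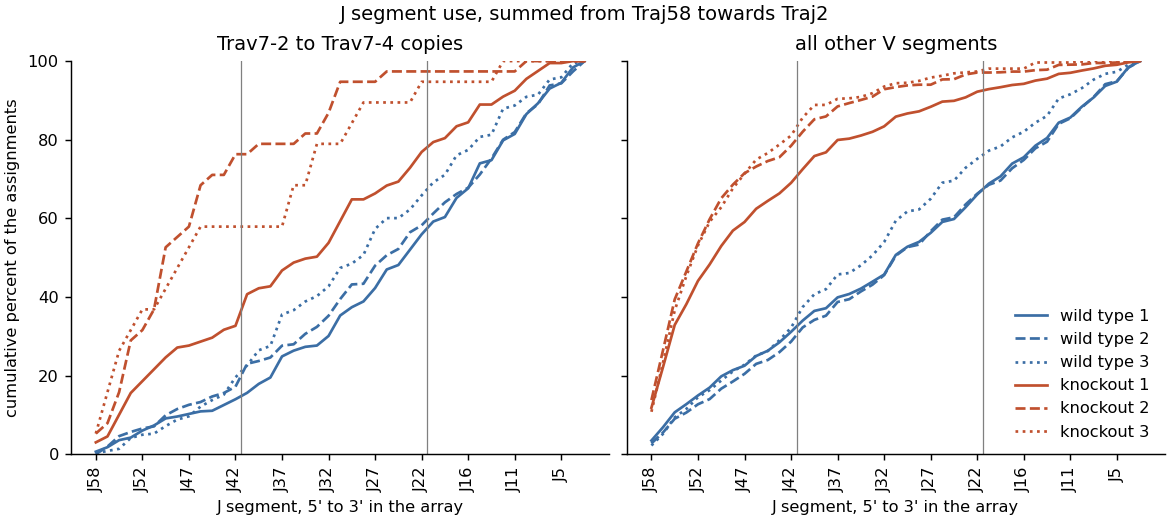
Cumulative percent of assignments (vertical axis) summed over J segments from Traj58 at the left towards Traj2 at the right (horizontal axis), for the 7 copies and for all other V segments, with 1 line per library and grey lines at the bounds of the 5′ and 3′ windows. With the copies, the 3 wild-type lines reach 14.0 to 19.6% at the first bound and the 3 knockout lines 32.7 to 76.3%.

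The J use of the plain, D and N copies was then compared within each library. The part joined to the 5′ window was 13.1, 15.8 and 18.0% for the plain copies, 14.1, 24.0 and 27.5% for the D copies and 21.4, 20.6 and 21.7% for TRAV7N-4. The D copies were thus above the plain ones in every wild-type library, by 1.04 to 9.46 points. In the knockout the plain copies stood at 30.1, 68.4 and 58.3% and the D copies at 36.0, 84.2 and 100%, where the last value rests on 1 listed pair. Over the 6 libraries D minus plain averaged 13.7 points, above 0 in 6 of 6 (exact sign-flip permutation p = 0.03125, adjusted 0.192). That average was 8.07 points without knockout replicate 3 (p = 0.0625) and 4.55 with every pair counted once, whatever its share (exact sign-flip permutation p = 0.90625), so the order was not firm. The mean J number showed no such order, with D above plain in 4 of 6 libraries (exact sign-flip permutation p = 0.25, adjusted 0.391). The plain and D sums weigh the 3 numbers differently, so neither comparison separates type of copy from number. Within number 3, the 5′ J part of TRAV7D-3 was below that of TRAV7-3 in wild-type replicate 1 and in knockout replicate 1 (9.09 against 32.3%). It was above in wild-type replicates 2 and 3 and in knockout replicate 2 (84.2 against 50.0%). Knockout replicate 3 listed no TRAV7D-3.

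TRAV7N-4 was listed at 0 in knockout replicate 2, so that its J profile is undefined there, and it stood at 42.9 and 50.0% in the other two knockout libraries. N minus plain was above 0 in 4 of the 5 libraries with a value (4.26 points on average, exact sign-flip permutation p = 0.25, adjusted 0.391). N minus D was above 0 in 2 of 5 (-8.99 points, exact sign-flip permutation p = 0.6875, adjusted 0.747). The genotype differences of these gaps were within their spread, with exact permutation p = 0.3 for D minus plain, 0.8 for N minus plain and 0.4 for N minus D.

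Within number 4, where the 3 copies can be set side by side, TRAV7-4 had the lowest 5′ J part in each wild-type library. It was 15.1, 16.3 and 14.6%, against 25.0, 19.2 and 23.5% for TRAV7D-4 and 21.4, 20.6 and 21.7% for TRAV7N-4. TRAV7-4 is also the copy nearest to the J array. The comparison within number 4 was picked after its values were seen and was not tested. Within number 3, the plain copy was above the D copy in wild-type replicate 1 (10.0 against 8.93%) and below it in replicates 2 and 3. Within number 2, TRAV7-2 stood at 12.3, 16.7 and 18.6% in wild type, against 0, 0 and 50.0% for TRAV7D-2. Those TRAV7D-2 values rest on 1, 4 and 2 smallest values. A lower 5′ J part of the plain copy was thus not seen in every wild-type library of the other numbers.

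By number, the J profile was steadiest for the number 4 copies, whose 5′ J part was 17.2, 17.1 and 16.2% in wild type, against 34.3, 25.0 and 53.8% in the knockout (exact permutation p = 0.1, adjusted 0.192). The number 3 copies ranged from 9.62 to 26.6% in wild type and were at 26.2, 81.0 and 100% in the knockout, a slight overlap (exact permutation p = 0.2). The number 2 copies overlapped as well, with 12.3, 16.0 and 19.4% against 34.5, 84.6 and 0% (exact permutation p = 0.5). The value of 0 in knockout replicate 3 rests on a TRAV7-2 share of 0.234%, 2 smallest values of that library. The number 4 value of 25.0% in knockout replicate 2 rests on 4 smallest values, all of TRAV7-4. The number 3 value of 100% in knockout replicate 3 also rests on 4, all of TRAV7-3.

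Single V-J pairs of the copies were thinly covered. Of 301 possible pairs, 236 were above 0 in at least 1 wild-type library and 92 in all 3, whereas 125 were above 0 in at least 1 knockout library and 0 in all 3. The wild-type libraries listed 183, 174 and 141 of them and the knockout libraries 110, 25 and 18. Only 3 pairs reached the filter of a 0.1% mean share, all of TRAV7-4, and they did so through wild type, since their knockout means of 0, 0.0120 and 0.0576% lay below it. A lower knockout value was thus largely fixed by the filter, and the count of 2 that passed as lower is a description beside the 35.6% of the 202 pairs tested that passed in either direction and the 12.9% that passed as lower.

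TRAV7-4 with TRAJ27 held 0.111, 0.236 and 0.265% in wild type, and every knockout library listed it at 0 (limma adjusted p = 0.00883, and 0.0123 with all pairs tested and no filter). TRAV7-4 with TRAJ12, the pair of the highest wild-type mean among the copies, held 0.158, 0.204 and 0.361% and then 0.0361, 0 and 0% (log2 difference -3.38, limma adjusted p = 0.0202, and 0.0262 with no filter). TRAV7-4 with TRAJ31 held 0.158, 0.204 and 0.217% and then 0.0541, 0.119 and 0% (log2 difference -1.97, limma adjusted p = 0.0906). TRAJ27 and TRAJ31 lie between the windows and TRAJ12 in the 3′ window. Since the filter picked these pairs through wild type, all p-values given for them are descriptions and no independent support for a lower knockout value. The call of the TRAJ12 pair was lost without wild-type replicate 1 (adjusted p = 0.0578) or 2 (0.0901), and without wild-type replicate 2 or 3 the TRAJ27 pair was under the filter, as was the TRAJ12 pair without replicate 3.

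The most used pair of each other copy lay under the filter and was not tested. In wild type TRAV7-2 was listed most with TRAJ37, at 0.190, 0.0944 and 0.168%, and this pair stood at 0.0902, 0 and 0% in the knockout. TRAV7-3 was listed most with TRAJ12, at 0.0317, 0.157 and 0.144%, and this pair was at 0 in all 3 knockout libraries. TRAV7N-4 was listed most with TRAJ31, at 0.0475, 0.0472 and 0.0481%, the most even of these pairs, and then at 0.0180, 0 and 0%. The leading wild-type pairs of TRAV7D-2 (TRAJ7), TRAV7D-3 (TRAJ26) and TRAV7D-4 (TRAJ4) had means of 0.0105, 0.0741 and 0.0294%. In the knockout the highest means belonged to pairs with 5′ J segments for TRAV7D-3 (TRAJ49, at 0, 0.297 and 0%), TRAV7D-4 (TRAJ57, at 0.0361, 0 and 0.117%), TRAV7-3 and TRAV7N-4 (both with TRAJ56, each at 0.0541, 0 and 0.117%). For TRAV7-4 the highest was TRAJ35, at 0.0361, 0 and 0.234%, and for TRAV7-2 TRAJ22, at 0.0722, 0 and 0.117%, which both lie between the windows. Each of these knockout values is a few smallest values of its library, and the highest mean came in each case from 1 or 2 libraries.

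The plain, D and N copies lie apart within the same stretch of the array, and their names follow these blocks. From TRAV7D-2 to TRAV7-4 the stretch spans 778 kb and holds 69 of the listed V segments. The 7 copies made up 18.3, 17.3 and 20.1% of all that these 69 segments held in wild type, against 11.6, 7.14 and 8.96% in the knockout. The genotypes did not overlap, and the exact permutation test gave its smallest p = 0.1 (adjusted 0.192). Counting every pair once moved the difference from -9.30 to -2.45 percentage points (exact permutation p = 0.2). The other segments of the stretch were also mostly lower: of 38 tested, 34 had a log2 difference below 0, with a median of -1.28, and 0 passed an adjusted p of 0.05 in limma.

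Of the nearest segments on either side of the copies, 6 were tested, and 5 had a log2 difference below 0. TRAV4-2, just downstream of TRAV7-2, held 0.254, 0.126 and 0.193% in wild type, against 0.108, 0 and 0% in the knockout. TRAV14D-3-DV8, just upstream of TRAV7N-4, held 1.52, 1.02 and 1.40% and then 0.487, 0 and 0%. TRAV8-1, just downstream of TRAV7-4, overlapped between genotypes, with 0.523, 0.299 and 0.602% and then 0.505, 0.356 and 0.352%. TRAV8D-1 next to TRAV7D-4, TRAV14N-3 next to TRAV7-2 and TRAV6-3 next to TRAV7-3 overlapped too, and TRAV6-3 was the one with a difference above 0 (0.56). Under the filter, TRAV6D-4, TRAV6-4 and TRAV6-2 were listed at 0 in every knockout library, TRAV6D-3 in 2 of 3, and TRAV9N-1 was at 0 throughout.

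**Figure D4:**
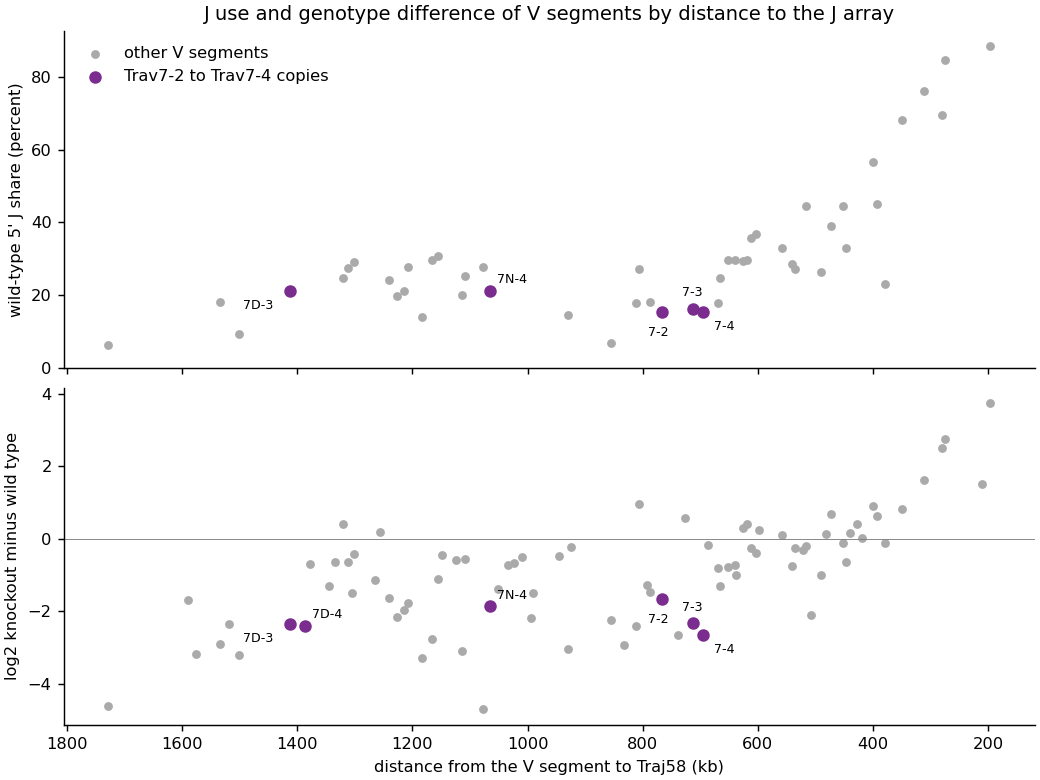
Distance of each V segment to Traj58 in kb (horizontal axis, J array to the right) against its 5′ J part in wild type in percent (upper panel, segments with a wild-type mean of at least 0.5%) and its log2 difference between knockout and wild type (lower panel, the 84 tested), with the copies in purple. The copies lie among the other segments of the middle of the array, with log2 differences from -2.65 to -1.67.

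Across the 84 V segments tested, the log2 difference was lower with greater distance to Traj58 (Spearman rho -0.64, over segments that share the same 6 libraries). Of the other Trav7 segments, TRAV7-1 lies upstream of TRAV7D-2, TRAV7-5 and TRAV7-6 lie downstream of TRAV7-4, and TRAV7D-5, TRAV7N-5 and TRAV7N-6 lie in between. TRAV7-5 and TRAV7D-5, both more used than TRAV7-2, overlapped between genotypes, TRAV7D-5 with 8.42, 8.09 and 5.80% in wild type, against 8.08, 13.8 and 8.44% in the knockout. TRAV7-1 held 0.285, 0.849 and 0.650% and then 0.0902, 0 and 0.117%. TRAV7N-6 held 0.317, 0.440 and 0.529% and then 0.0722, 0 and 0.117%. Both were without overlap (limma adjusted p = 0.0639 for each). In the fit of the 48 summed segments, of which 12.5% passed as lower, TRAV7-1 passed (log2 difference -3.20, limma adjusted p = 0.0351). The Trav7-5 and Trav7-6 copies summed did not (limma adjusted p = 0.556 and 0.260). TRAV7-6 and TRAV7N-5 overlapped, and TRAV7D-6 was listed at 0 throughout. A lower share in the knockout was thus not common to every number of the family.

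Of 45 other V segments with a wild-type mean of at least 0.5%, TRAV7D-5, TRAV12D-3 and TRAV3D-3 had the J profile most like that of the copies in wild type, by total variation distance over the 43 J segments (0.154, 0.168 and 0.187, where 0 means equal profiles). All 3 are D copies that lie upstream of TRAV7N-4, and all 3 wild-type libraries entered the measure. In the knockout TRAV12D-3 held 1.18% ± 0.880 against 4.16% ± 1.11 in wild type, and TRAV3D-3 0.529% ± 0.565 against 3.74% ± 1.20 (SD, n = 3; limma adjusted p = 0.117 and 0.0602). TRAV7D-5, with the nearest J profile, held 10.1% ± 3.21 against 7.43% ± 1.42 (SD, n = 3; limma adjusted p = 0.629).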

How the data were processed

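Total RNA of thymocytes was converted to receptor libraries by 5′ RACE with a reverse primer in the constant region and 2 rounds of PCR, per the labels' protocols, which name no molecular identifiers. The submitters' processing notes name fastp, with no version. How segments were assigned, with which reference, and whether a value counts reads or clonotypes was not given in the sources used here. The authors deposited 1 table of percent values per library, with V segments in rows and J segments in columns, so depth is unknown and no counting interval is given. Nothing was dropped or imputed. The 6 Tcra tables were summed over J for V shares and over copies of the same number for summed shares. Values were tested with limma 3.58.1 (R 4.3.3) on log2(percent + 0.0157), where the authors' percent values gained the smallest value of the finest library as pseudocount, for features with a mean share of at least 0.1%, with Benjamini-Hochberg adjustment over all features tested. A p under 0.05 after adjustment is called passed. Single values per library were compared by exact two-sided permutation (3 against 3, smallest p 0.1) or, within libraries, by exact sign-flip permutation over the 6 libraries, with adjustment over all 50. The scripts were tested on simulated data. For limma all simulated libraries took the wild-type spread and lacked the coarse steps of knockout replicates 2 and 3. They thus do not show how limma behaves at the spread and steps of the knockout libraries. Sequences came from GENCODE M21 by symbol, where 114 of 117 V segments matched. Named were all copies, their tested pairs and most used pair in each genotype, the 3 leading J segments in each genotype and TRAJ58. Also named were the other Trav7 numbers, the nearest V segments and the 3 V segments with the most similar J profile. The copies, lists and tests were chosen with earlier results of these data known. Alternatives were other pseudocounts, no filter, centred log values, a replicate block, leaving out each library, each pair counted once, only pairs of at least 0.117%, and other J windows (Traj48 and above, Traj17 and below). Added after the values were seen were the comparison with the nearest V segments, the shares within the copies and within their stretch of the array, and the sign-flip test against the other V segments.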

Additional observations from a re-analysis of the deposited data

How the results depend on the processing

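Read depth is unknown; the smallest listed value was highest in knockout replicates 2 and 3, so low shares are resolved least there. Among the V segments, the 4 passing overall were 18 at the larger pseudocount, 7 without a filter, 15 with the replicate block and 0 to 14 with a library left out; the 0 copies passing were 3 at the larger pseudocount, 1 with the replicate block (TRAV7-4, adjusted p = 0.0355 by limma) and 0 to 2 with a library left out. Among summed segments, the 9 passing were 17 at the larger pseudocount, 18 with the replicate block and 3 to 15 with a library left out; the 1 copy sum passing was 3 at the larger pseudocount, 3 with the replicate block, 0 with centred log values and 0 to 2 with a library left out. Among pairs, the 72 of 202 passing were 140 of 3123 without a filter and 36 with centred log values. With a library left out 7 to 79 passed. The 2 of 3 pairs of the copies passing were 17 of 242 without a filter. With a library left out 0 to 4 of them passed, where 1 to 8 were tested. The cause of these moves was not tested. Libraries with the same replicate number shared only that number. Their deviations from the group means correlated with r = 0.32, -0.04 and 0.18 over V segments and 0.06, 0.14 and 0.17 over pairs. Over summed segments r was 0.30, -0.04 and 0.28. Between libraries of unlike number r ran from -0.34 to 0.17, -0.16 to 0.04 and -0.45 to 0.22, in the same order. These values do not settle whether libraries were paired, and the main fits used no replicate block. With the block the summed share of the copies differed by -6.43 points (exact sign-flip permutation p = 0.25, the smallest for 3 pairs).

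Using only pairs at or above 0.117%, the genotype difference turned to 0.263 points for the D share, 0.234 for the N share, 0 for the 3′ J part of the D copies and 2.37 for the mean J number against other V segments, and N minus plain 5′ J within libraries turned to -8.33. With each pair counted once it turned to 1.88 for the plain and -4.87 for the D part of the copies, and N minus plain within libraries to -1.55 (5′ J) and -1.09 (mean J number). Against the nearest V segments the 3′ J difference turned to 0.978. With 1 library left out, the genotype difference ran from -4.80 to 17.6 for the D part and -0.118 to 15.7 for the N part of the copies, -0.576 to 14.0 for the mean J number of the number 2 copies, -16.0 to 1.09 for the 5′ J gap to other V segments, -0.955 to 7.80 for D minus plain (mean J number), -14.0 to 7.09 for N minus plain (5′ J), -49.4 to 7.46 for N minus D (5′ J) and -14.1 to 5.11 for N minus D (mean J number). Within libraries, N minus D ran from -13.1 to 1.26 (5′ J) and -4.41 to 0.394 (mean J number).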
